A study of Mus musculus with 71 samples.

Results

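The genes studied here were 9 receptor genes of γδ intraepithelial lymphocytes (IELs), the γδ T cells that lie between the epithelial cells of the gut: Lag3, Pdcd1, Tigit, Ctla4, Havcr2, Cd96, Cd226, Cd200r1, and Cd101. They were chosen by name, as 9 of the 24475 gene identifiers in the γδ IEL count table, and each was also read in single-cell tables of the same cell type. Mice without Btnl2, a butyrophilin-like gene of the gut epithelium, were compared with wild-type (WT) mice in the duodenum, jejunum, and ileum. Btnl2-KO mice were homozygous for a LacZ knock-in null allele of Btnl2 on a C57BL/6 background, and WT mice were their cohoused littermates. All animals were females, 10 weeks old by the labels for bulk sequencing of γδ IELs and 8 to 10 weeks old for single cells. Epithelial cells used for comparison came from mice of both genotypes, 7 weeks old by the labels. The small intestine was cut into 3 segments of equal length, γδ IELs were sorted as CD45+ TCRβ- TCRγδ+ cells, and cells of 2 mice were pooled for each sample. Bulk RNA-sequencing gave 22 libraries, 4 per segment for WT and 3, 4, and 3 for the Btnl2-KO duodenum, jejunum, and ileum. A further share of the same sorted cells was pooled into 1 single-cell library per segment and genotype, so that the bulk and single-cell values came from the same mice and were not independent.

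Inhibitory receptors restrain T cells after antigen contact, mostly by drawing phosphatases to motifs in their tails or by taking ligands away from stimulatory partners. LAG-3 (Lag3) binds MHC class II and FGL1, PD-1 (Pdcd1) binds PD-L1 and PD-L2, CTLA-4 (Ctla4) takes CD80 and CD86 from CD28, TIM-3 (Havcr2) binds galectin-9 and CEACAM1, and CD200R1 (Cd200r1) binds CD200. TIGIT (Tigit) and CD96 (Cd96) share nectin-family ligands such as CD155 with CD226 (Cd226), which is an activating receptor and the counterpart of both. CD101 (Cd101) is an immunoglobulin-family glycoprotein found on T cells resident in tissues. IELs of the small intestine are known to be held in a partly activated state, with stored granzymes and several of these receptors on their surface.

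The samples were first checked against their labels. Total counts per γδ IEL library ranged from 13444958 to 30029485. Btnl2 was at 2.47 to 9.89 CPM (counts scaled to a common library size by TMM) in the 12 WT libraries and at 0 to 0.123 CPM in the 10 Btnl2-KO libraries. Among 12 epithelial markers, all were detected, and their summed level ranged from 610.0 to 8757 CPM per library, against 39990 to 105200 CPM for 11 γδ T cell markers. The αβ T cell genes that could be measured (Cd4, Foxp3, and Il2ra, 3 of 6 on the list) summed to 0.993 to 6.61 CPM, and the B cell gene Ms4a1, the macrophage genes Csf1r and Adgre1, and the mast cell gene Tpsb2 averaged 0.362 CPM or less in every group. Other genes of the B cell, myeloid, and mast cell lists were higher. Group means were 115.9 to 148.2 CPM for Cd79b, 66.1 to 168.6 for Kit, and 89.4 to 168.3 for Itgax. Mcpt1 reached 10.2, Cd14 7.70, Cd68 6.52, Mcpt2 5.59, and Jchain 4.48 CPM, in the range of Ctla4 and Havcr2. The remaining genes of these lists averaged 2.56 CPM or less, and the part of these cell types in the receptor values was not tested. In bulk libraries, fewer cells that express a gene and less RNA per cell cannot be told apart. Nothing in the labels says which libraries of different segments came from the same mice, and p-values measure the spread between pooled samples.

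All 9 genes passed the count filter in every comparison, with at least 10 counts in 22 of 22 libraries. Per kilobase of exon, Cd96 stood far above the others with a median of 385.5 CPM per kb over the 22 libraries. Cd200r1 (71.3), Tigit (48.7), Cd101 (24.5), and Cd226 (13.9) followed, then Lag3 (9.91) and Pdcd1 (8.49), and Ctla4 (4.28) and Havcr2 (2.43) were lowest. Reads of Cd200r1 can be shared with its close paralogs, among them Cd200r4, so that its level is less certain. The 16 libraries of intestinal epithelial cells, from mice 7 weeks old and of both genotypes, were counted and normalized separately. There the medians were 0.0971 CPM for Pdcd1 to 4.17 CPM for Cd96. The median CPM in γδ IELs was 10.6 times that in epithelial cells for Lag3, the lowest ratio, and 300.6 times for Cd200r1, the highest.

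Gene positions are from RefSeq on GRCm38.p6. Lag3 (gene ID 16768) lies at chr6:124904359-124912434, Pdcd1 (18566) at chr1:94038305-94052553, Ctla4 (12477) at chr1:60909025-60915832, and Havcr2 (171285) at chr11:46454931-46481255. Tigit (100043314), Cd96 (84544), and Cd200r1 (57781) all lie on chromosome 16, at chr16:43626137-43665125, chr16:46035652-46120248, and chr16:44765736-44794977. Cd101 (630146) lies at chr3:100992189-101029553, and Cd226 (225825) on chromosome 18.

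Along the small intestine of WT mice, 4 of the 9 receptors were higher in jejunal than in duodenal γδ IELs, Pdcd1, Ctla4, Havcr2, and Cd96. A gene was called at an adjusted p below 0.05 and a fold above 1.5, and by this rule 23.3% of all 12629 genes tested were called between these segments, so that many genes besides the receptors moved. The fold changes of all 9 receptors were above 0, with a median log2 fold change of 0.58 against 0.01 over all genes. The CPM values of 6 receptors did not overlap between the segments, the 4 called genes, Cd226, and Cd101, and by the same measure 35.1% of all genes tested did not overlap. That share was not computed for the other segment comparisons below.

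**Figure D1:**
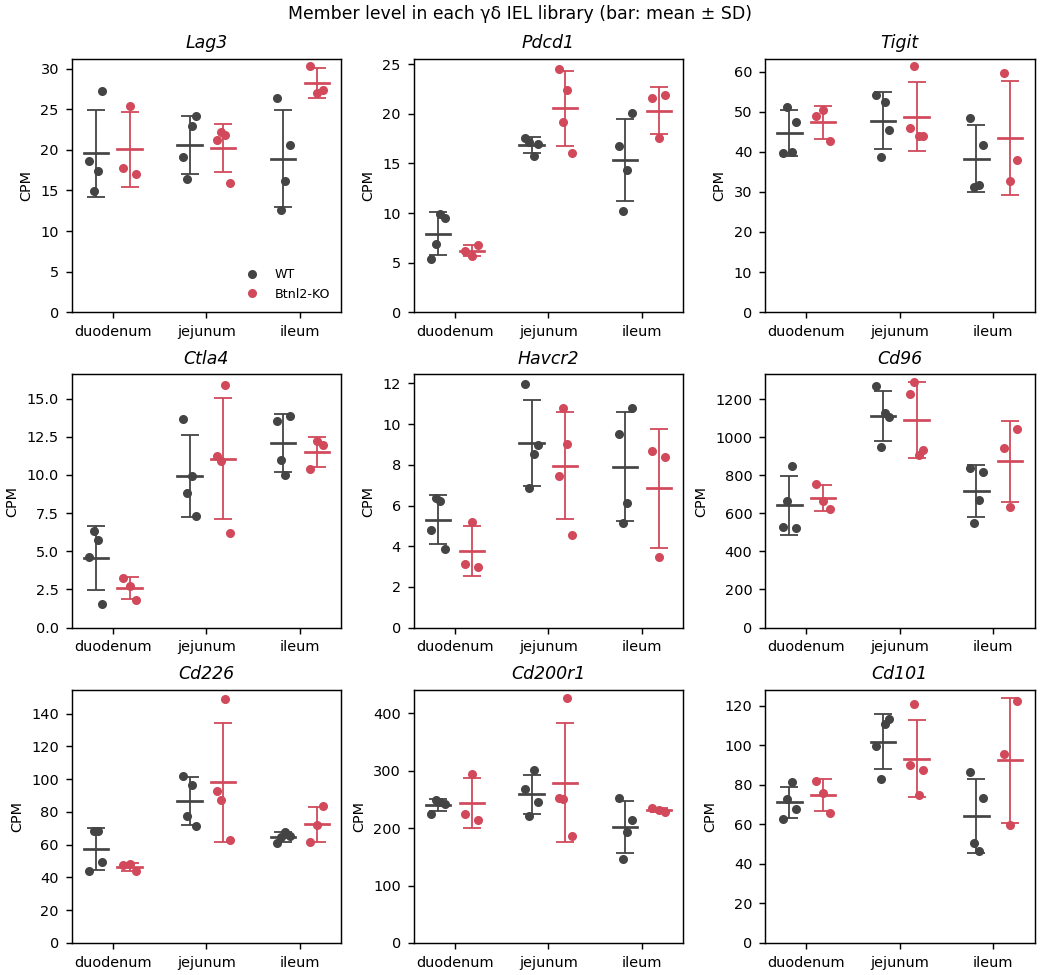
Level of each receptor gene in every γδ IEL library (vertical axes, CPM, linear from 0) by segment, with WT in grey and Btnl2-KO in red. Points are libraries and bars are mean ± SD. Pdcd1 and Ctla4 were lowest in the duodenum of both genotypes, and Cd96 was highest in the jejunum.

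Pdcd1 was at 5.32, 6.90, 9.90, and 9.51 CPM in the 4 WT duodenal libraries and at 17.55, 17.15, 15.7, and 17.0 CPM in the 4 WT jejunal libraries. The lowest jejunal library was above the highest duodenal one. Its log2 fold change was 1.07 ± 0.21 (SE), with an adjusted p of 0.00506 (edgeR quasi-likelihood test, Benjamini-Hochberg adjusted over all genes). Ctla4 was at 4.65, 6.32, 5.74, and 1.57 CPM in the duodenum and at 13.7, 8.80, 9.94, and 7.32 CPM in the jejunum. The groups did not overlap, but their nearest libraries were close, and the log2 fold change was 1.09 ± 0.37 with an adjusted p of 0.0397 by edgeR. The call for Ctla4 was lost without duodenal replicate 1 or jejunal replicate 1, 3, or 4, where its adjusted p ranged from 0.0506 to 0.1145 and its log2 fold change from 0.90 to 1.22.

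Cd96 was at 527, 666, 848, and 524 CPM in the WT duodenum and at 1267, 946, 1128, and 1107 CPM in the WT jejunum. All jejunal libraries were above all duodenal ones, and the log2 fold change was 0.78 ± 0.17 with an adjusted p of 0.00803 by edgeR. Havcr2, the least abundant of the 9, was at 4.78, 6.37, 6.22, and 3.85 CPM in the duodenum and at 12.0, 6.87, 8.54, and 8.97 CPM in the jejunum. Its log2 fold change was 0.75 ± 0.24 with an adjusted p of 0.0347 by edgeR, and the call was lost without duodenal replicate 1 or 4 or jejunal replicate 1, 3, or 4 (log2 fold changes of 0.59 to 0.78, adjusted p of 0.0600 to 0.111). With the mean level of the epithelial markers as a covariate, Ctla4 (adjusted p = 0.113) and Havcr2 (adjusted p = 0.142) were no longer called by edgeR. That fit called 2050 of all genes, beside 2937 without the covariate. Pdcd1 and Cd96 were called under every alternative run and without each library in turn.

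Cd226 and Cd101 passed the adjusted p but not the fold minimum between these segments. Cd226 had a log2 fold change of 0.58 ± 0.17 (adjusted p = 0.0257) and Cd101 of 0.50 ± 0.13 (adjusted p = 0.0141, both edgeR). Tigit (0.08 ± 0.14), Lag3 (0.06 ± 0.21), and Cd200r1 (0.09 ± 0.12) had intervals that reached from -0.40 to 0.52 at most.

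Other measures moved between the same libraries. Of 5 equal groups of genes by exon length, the shortest had a median log2 fold change of -0.47 in the WT jejunum over the duodenum and the longest one of 0.14, and the short ribosomal gene Rpl13a fell by 1.43 on the log2 scale (adjusted p = 0.004215, edgeR). Relative to the median of genes of like length (10 equal groups), the called receptors had log2 differences of 1.35 (Pdcd1), 1.37 (Ctla4), 0.82 (Havcr2), and 1.06 (Cd96), each larger than without that reference. The epithelial marker sum was 3857 to 7356 CPM in the WT duodenum and 2089 to 5731 CPM in the WT jejunum, with Fabp1 lower in the jejunum by a log2 fold change of -3.66. Kit, on the mast cell list, averaged 66.1 CPM in the duodenum and 168.6 CPM in the jejunum, and Itgax, on the myeloid list, 89.4 and 168.3 CPM, while Tpsb2, Csf1r, and Adgre1 were near 0. On the same lists, Mcpt1 averaged 9.90 and 9.07 CPM, Mcpt2 5.59 and 5.36 CPM, and Cd68 3.91 and 5.59 CPM. The summed level of the 6 mast cell markers was 68.9 to 98.5 CPM in the WT duodenum and 169.9 to 212.9 CPM in the WT jejunum, and that of the 6 myeloid markers 77.9 to 131.4 and 133.5 to 206.1 CPM. The part of these in the receptor values was not tested, other than by the epithelial covariate and the length reference.

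From the WT jejunum to the WT ileum, Cd96 and Cd101 fell. These 2 calls of 9 receptors were a share near the 21.7% of 12643 genes called in that comparison, and they do not set the receptors apart. The comparison shares its jejunal libraries with the one above. Cd96 was at 836, 547, 668, and 817 CPM in the ileum, below every jejunal library, with a log2 fold change of -0.62 ± 0.17 and an adjusted p of 0.0180 (edgeR). Cd101 was at 99.9, 82.9, 111, and 114 CPM in the jejunum and at 86.3, 50.7, 46.5, and 73.3 CPM in the ileum, where 1 ileal library reached into the jejunal range, and its log2 fold change was -0.65 ± 0.20 with an adjusted p of 0.0301. The Cd96 call was lost without ileal replicate 2 or 3 or jejunal replicate 1, and the Cd101 call without these or without jejunal replicate 3 or 4. In those fits the log2 fold change of Cd96 ranged from -0.51 to -0.59 and that of Cd101 from -0.52 to -0.66. Cd226 had a log2 fold change of -0.41 ± 0.13 (adjusted p = 0.0371), under the fold minimum. Gene length moved with this comparison in the opposite sense, with median log2 fold changes of 0.42 in the shortest and -0.16 in the longest of the 5 groups, and relative to genes of like length Cd96 was at -0.88 and Cd101 at -0.62. Kit and Itgax were lower in the WT ileum by log2 fold changes of -1.22 and -0.78, and the epithelial marker sum was 3374 to 8757 CPM there. With the epithelial covariate, Cd96 was at -0.58, under the fold minimum, and the part of the other genes was not tested.

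Between WT ileum and duodenum, 0 receptors were called by edgeR, 2 by DESeq2, and 1 by limma-voom, and 2 had an unadjusted p below 0.05. Over all 12535 genes, 2.16% were called by edgeR, 4% by DESeq2, and 4.34% by limma-voom. The edgeR count of 271 genes was 618 without ileal replicate 1, 156 without ileal replicate 3, and 174 without ileal replicate 4. Pdcd1 was at 16.75, 10.2, 14.3, and 20.1 CPM in the ileum, just above the duodenal range, with a log2 fold change of 0.96 ± 0.27 (adjusted p = 0.110). Ctla4 was at 13.5, 10.96, 10.0, and 13.8 CPM in the ileum, clear of the duodenum, with a log2 fold change of 1.39 ± 0.35 (adjusted p = 0.0723). Ctla4 was called by edgeR without duodenal replicate 4, the library with its lowest value, at a log2 fold change of 1.12 (adjusted p = 0.0489). The other 7 receptors lay between -0.25 and 0.58 on the log2 scale, with intervals that included 0.

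Btnl2-KO mice gave the segment comparison again in other animals. Pdcd1 and Ctla4 were higher in the Btnl2-KO ileum than in the Btnl2-KO duodenum, 2 calls where 0.505% of 12477 genes were called. That count of 63 genes was 245 without ileal replicate 2, 15 without ileal replicate 1, 22 without duodenal replicate 1, and 19 without duodenal replicate 3. Pdcd1 was at 6.204, 5.685, and 6.74 CPM in the Btnl2-KO duodenum and at 21.55, 17.6, and 21.9 CPM in the ileum, a log2 fold change of 1.72 ± 0.25 (adjusted p = 0.0306, edgeR). Ctla4 was at 3.28, 2.72, and 1.83 CPM in the duodenum and at 10.4, 12.2, and 12.0 CPM in the ileum, a log2 fold change of 2.16 ± 0.35 (adjusted p = 0.0456). For both genes every ileal library was above every duodenal one, as was so for Lag3 and Cd226, 4 receptors in all. The share of all genes so separated was not computed. Both Pdcd1 and Ctla4 were called by DESeq2 and limma-voom as well, which called 3.75% and 5.39% of all genes. Neither was called without duodenal replicate 1, 2, or 3 or ileal replicate 1 or 3, where the adjusted p of Pdcd1 ranged from 0.0517 to 0.226 and its log2 fold change from 1.65 to 1.79. The epithelial marker sum was 3724 to 6280 CPM in the Btnl2-KO duodenum and 1024 to 3536 CPM in the ileum, and with its mean log2 level as a covariate Pdcd1, Ctla4, and Cd101 were called, among 17.7% of all genes.

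In the Btnl2-KO jejunum against the duodenum, 0 receptors were called by edgeR, and 0% of 12711 genes were called, although 1323 genes and 5 receptors had an unadjusted p below 0.05. Pdcd1 was at 24.6, 19.2, 22.4, and 16.0 CPM in the jejunum, a log2 fold change of 1.72 ± 0.22 over the duodenum (adjusted p = 0.222), and Ctla4 was at 11.3, 10.9, 15.9, and 6.18 CPM, a log2 fold change of 2.08 ± 0.39 (adjusted p = 0.374). Both were clear of the duodenal range, as were Cd96 and Cd226, and the share of all genes so separated was not computed. DESeq2 called Pdcd1 and Ctla4 among 0.732% of all genes, and an edgeR fit over all 22 libraries called these and Cd226 among 0.307%, whereas limma-voom called 0. Havcr2 (1.08 ± 0.38), Cd226 (1.08 ± 0.28), and Cd96 (0.67 ± 0.20) had intervals above 0. Jejunal replicate 3 had the highest Cd226 (149 CPM), Cd200r1 (427 CPM), and Ctla4 of its group. Between the Btnl2-KO ileum and jejunum 0 receptors were called by edgeR, DESeq2, or limma-voom, 0 had an unadjusted p below 0.05, and 0% of 12579 genes were called. Lag3 was at 15.9 to 22.2 CPM in the jejunum and 27.0 to 30.3 CPM in the ileum there, with a log2 fold change of 0.46 ± 0.21 (adjusted p = 1).

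**Figure D2:**
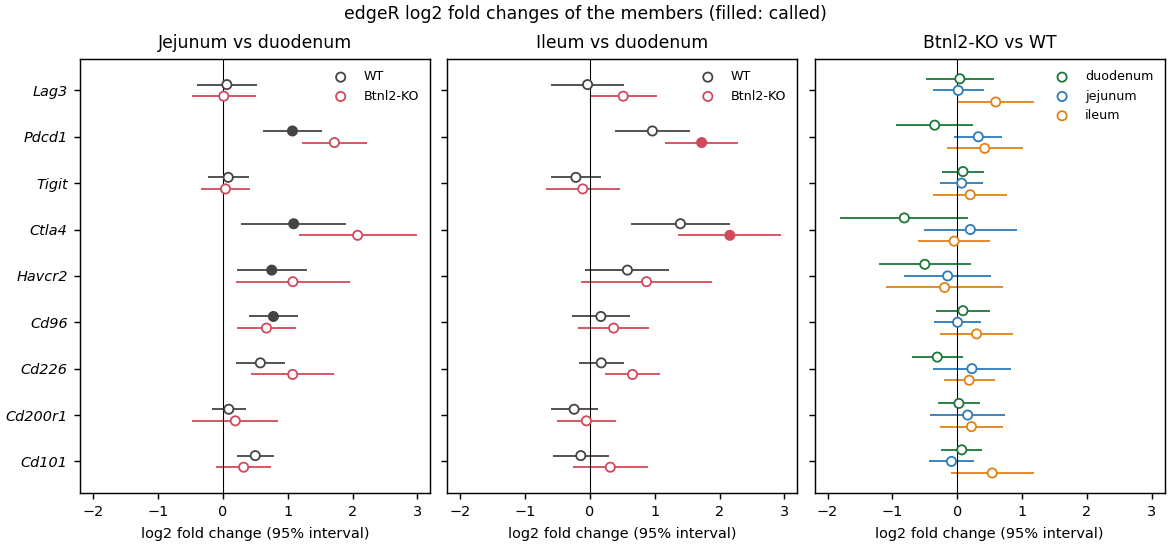
Log2 fold changes (horizontal axes) of the 9 receptors by edgeR with 95% intervals, for jejunum and ileum over duodenum in each genotype and for Btnl2-KO over WT in each segment. Filled points were called at an adjusted p below 0.05 and a fold above 1.5. Pdcd1 and Ctla4 were right of 0 in the segment comparisons of both genotypes, and no genotype comparison had a filled point.

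The promoters of the 4 receptors called between WT jejunum and duodenum are shown because these genes moved in the same direction. Each line is the 250 bases before the RefSeq start on GRCm38.p6, read 5′ to 3′ on the strand of the gene, with matches to 4 motifs in capitals. The windows are chr1:94052554-94052803 (minus strand) for Pdcd1, chr1:60908775-60909024 (plus) for Ctla4, chr11:46454681-46454930 (plus) for Havcr2, and chr16:46120249-46120498 (minus) for Cd96.
Pdcd1: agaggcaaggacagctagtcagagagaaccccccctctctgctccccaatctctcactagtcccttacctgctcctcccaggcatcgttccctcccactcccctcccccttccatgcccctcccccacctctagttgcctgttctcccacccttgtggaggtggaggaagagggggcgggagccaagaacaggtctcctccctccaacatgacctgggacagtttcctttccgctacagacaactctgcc
Ctla4: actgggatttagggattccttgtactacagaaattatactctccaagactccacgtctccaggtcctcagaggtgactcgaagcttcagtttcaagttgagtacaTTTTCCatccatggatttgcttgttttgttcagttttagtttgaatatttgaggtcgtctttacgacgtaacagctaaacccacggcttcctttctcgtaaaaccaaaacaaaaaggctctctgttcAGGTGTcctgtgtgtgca
Havcr2: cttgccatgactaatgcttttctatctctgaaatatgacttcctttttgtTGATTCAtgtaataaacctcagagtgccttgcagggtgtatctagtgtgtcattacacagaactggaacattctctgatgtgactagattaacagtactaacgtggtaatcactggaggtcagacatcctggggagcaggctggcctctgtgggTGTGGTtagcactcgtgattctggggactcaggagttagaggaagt
Cd96: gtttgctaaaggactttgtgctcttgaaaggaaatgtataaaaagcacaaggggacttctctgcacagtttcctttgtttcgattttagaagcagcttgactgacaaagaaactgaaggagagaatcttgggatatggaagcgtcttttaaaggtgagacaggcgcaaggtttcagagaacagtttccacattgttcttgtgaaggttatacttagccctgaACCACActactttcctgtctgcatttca
The letters searched, on both strands, were GGAAAA (the NFAT core), TGANTCA (AP-1), TGTGGT (RUNX), and AGGTGT (T-box). In Ctla4, an NFAT core lay on the opposite strand at -145 to -140 and a T-box match at -18 to -13 from the start. Havcr2 held an AP-1 match at -200 to -194 and a RUNX match at -46 to -41, and Cd96 a RUNX match on the opposite strand at -28 to -23. The Pdcd1 window held no match to these letters. Over 27018 promoter windows of the same length, 20.65% held the NFAT core, 6.87% AP-1, 14.2% RUNX, and 11.99% T-box, so that the matches are common and describe the sequences only.

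The question of whether loss of Btnl2 changed the receptors was asked in each segment. By edgeR, 0 receptors were called between Btnl2-KO and WT in the duodenum, jejunum, or ileum, against 0.00789% of 12680, 0.00794% of 12594, and 0% of 12604 genes (where 1108 ileal genes had an unadjusted p below 0.05). DESeq2 called 0 receptors in each segment, and limma-voom 0 in the duodenum and jejunum and 2 in the ileum, where it called 9.58% of all genes. At an unadjusted p below 0.05 there was 1 receptor in the ileum, Lag3, and 0 in the other segments.

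Lag3 was at 30.3, 27.0, and 27.4 CPM in the Btnl2-KO ileum and at 26.4, 12.6, 16.1, and 20.6 CPM in the WT ileum. It was the receptor of the 9 whose ileal values did not overlap between genotypes, by a narrow margin, and 0 receptors were so separated in the duodenum or jejunum. Of all genes tested, 6.89% did not overlap between genotypes in the ileum, 3.01% in the duodenum, and 3.32% in the jejunum, and the single receptor is read against these shares. Its log2 fold change was 0.60 ± 0.27, with an adjusted p of 0.568 by edgeR and of 0.0337 by limma-voom, which gave 0.85. Cd101 was at 95.5, 59.5, and 123 CPM in the Btnl2-KO ileum, overlapping the WT values, with a log2 fold change of 0.54 ± 0.29 (adjusted p = 0.601 by edgeR and 0.0386 by limma-voom). The epithelial marker sum also differed between these libraries, at 1024 to 3536 CPM in the Btnl2-KO and 3374 to 8757 CPM in the WT ileum, and its part in the limma-voom result was not tested.

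In the duodenum, Ctla4 had the genotype value farthest from 0, a log2 fold change of -0.82 ± 0.45 with a 95% interval from -1.81 to 0.17. Havcr2 (-0.50), Pdcd1 (-0.35), and Cd226 (-0.31) were also below 0 there, with intervals that included 0. In the jejunum the 9 values lay between -0.15 and 0.33, with Pdcd1 highest (95% interval -0.04 to 0.70). Whether the genotype difference itself differed between segments was tested as an interaction in one fit of all 22 libraries. By edgeR, 0 receptors and 0% of 13360 genes passed an adjusted p of 0.05 for jejunum or ileum against duodenum (647 and 765 genes at an unadjusted p below 0.05), and DESeq2 and limma-voom called 0 receptors. Pdcd1 had interaction values of 0.64 ± 0.31 in the jejunum (adjusted p = 0.792) and 0.76 ± 0.32 in the ileum (adjusted p = 0.717), and it was the receptor with an unadjusted p below 0.05 in the latter.

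Genes around these receptors were followed as lists. Of 16 ligand genes, which epithelial or other cells in the sample could also express, 15 were tested between WT jejunum and duodenum, where Cd274 (PD-L1) rose by 0.73 and Nectin1 fell by 1.47 on the log2 scale. Between WT ileum and jejunum 3 of 16 rose, the MHC class II genes H2-Ab1 (1.505) and H2-Aa (1.46) and Hmgb1 (0.67), and Cd274 had a log2 fold change of -1.003. In WT ileum over duodenum H2-Aa (1.83), H2-Ab1 (1.70), and the TIM-3 ligand Ceacam1 (1.62) rose. The list medians were 0.18, 0.52, and 0.17 in these comparisons, against medians over all genes of 0.01, 0.00, and -0.01. The 3 of 16 that rose from jejunum to ileum stand beside the 21.7% of all genes called there in either direction, a share near that of all genes. The share of all genes called was 23.3% between WT jejunum and duodenum and 2.16% between WT ileum and duodenum.

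Of 15 other genes of co-inhibition, 13 were tested between WT jejunum and duodenum and 3 rose, Btla (2.13), the ectonucleotidase Nt5e (1.05), and Cd6 (0.82), with a list median of 0.27. These 3 of 13 were a share near the 23.3% of all genes called in that comparison. Entpd1 (-1.20) and Nt5e (-0.96) fell between WT jejunum and ileum. Of 12 co-stimulatory receptors, 11 were tested and 0 were called between WT jejunum and duodenum by edgeR (3 at an unadjusted p below 0.05), while Klrk1 (0.88) and Cd2 (0.86) rose from WT jejunum to ileum. Among 15 genes of phosphatase signalling below the receptors, Ptpn22 (0.90) and Inpp5d (0.79) rose and Ptpn11 (-0.65) fell in the WT jejunum over the duodenum, 3 calls that were likewise near the share of all genes. Inpp5d (-1.08), Ptpn22 (-0.83), and Cblb (-0.76) fell from jejunum to ileum. Of 20 transcription factors of T cell activation, 5 rose and 3 fell in the WT jejunum over the duodenum, including Tcf7 (1.31), Hif1a (0.96), Nr4a3 (-1.35), and Maf (-1.77). These stand beside the 23.3% of all genes called there. From WT jejunum to ileum 3 rose and 6 fell, with Maf at 1.56, Hif1a at -1.06, and Nfatc1 and Prdm1 both at -0.88. In that comparison 21.7% of all genes were called. The calls in co-inhibition (2 of 13), co-stimulation (2 of 11), and phosphatase signalling (3 of 15) were near or under that share. In the comparisons within Btnl2-KO mice and between genotypes, edgeR called 0 genes of these 5 lists, and between 0 and 7 genes of a list had an unadjusted p below 0.05 in any of these comparisons. In Btnl2-KO ileum over duodenum these were 7 of 13 for co-inhibition, 5 of 12 for co-stimulation, 4 of 16 ligands, 4 of 20 transcription factors, and 1 of 15 for phosphatase signalling. Of all 12477 genes, 1215 did so there. In Btnl2-KO jejunum over duodenum 6 of 13 co-inhibition and 4 of 11 co-stimulation genes did, beside 1323 of 12711. The other 3 lists had 1 to 3 each there.

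Across the 22 bulk libraries, the receptors did not vary as a unit. Over 36 pairs, Pearson's r of log2(CPM + 1) was highest for Cd96 with Cd101 (0.84) and Pdcd1 with Ctla4 (0.80) and lowest for Tigit with Ctla4 (-0.10). These libraries share segments, genotypes, and epithelial content, and the values are descriptions. Among 9966 genes with a mean of at least 5 CPM, the genes most like Pdcd1 were Slamf6 (r = 0.91), Socs3 (0.90), and Mospd1 (0.88), and those most like Ctla4 were Cd44 (0.84), Cd69 (0.84), and Trib2 (0.81). Cd96 was nearest to Slc46a3, Apol7e, and Apol7b (0.97 to 0.96), Cd101 to Pip5k1c, Sipa1, and Ppp6r1 (0.96 to 0.95), and Cd226 to Ifi209, Lpxn, and Zfp781 (0.93 to 0.91). Lag3 was nearest to Ccdc102a, Ubash3b, and Timp2 (0.89 to 0.83), Tigit to Acsf2, Txk, and Orai3 (0.83 to 0.80), Havcr2 to Snapin, Kctd18, and Slc35d2 (0.84 to 0.83), and Cd200r1 to Sh2d1b1, Prkar1a, and its paralog Cd200r4 (0.86 to 0.82).

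Single cells showed which of these receptors were common and which were rare. Of 23994 barcodes, 23569 cells passed the filters (500 or more genes, no more than 10% of UMIs mitochondrial), with 3589 to 4647 cells per library, a median of 4877 to 5468 UMIs, and a UMI of a Cd3 gene in 99.57 to 99.89%. Over all cells, 77.97% had a UMI of Cd96, 69.0% of Lag3, 46.8% of Cd200r1, 41.9% of Tigit, 24.8% of Cd226, 19.3% of Cd101, 7.14% of Ctla4, 3.44% of Pdcd1, and 1.93% of Havcr2. Free RNA can place UMIs in cells that do not express a gene. In 31 cells with epithelial genes and no Cd3 UMI, which should lack these receptors, Lag3 was found in 2 (6.45%) and the other 8 receptors in 0, which allows up to 11.2% (exact binomial 95% interval), so that for Ctla4, Pdcd1, and Havcr2 this check was too small to give a background. These cells held a median of 29837 UMIs and the others 5093. Libraries shared 18 to 31 barcodes per pair, 357 barcodes in all. Scrublet marked 51 cells (0.216%), too few for doublet calling to have worked, so that doublets were weighed by leaving out the deepest cells. There was 1 library per segment and genotype, and no test between groups was made, and the intervals below cover counting error only.

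**Figure D3:**
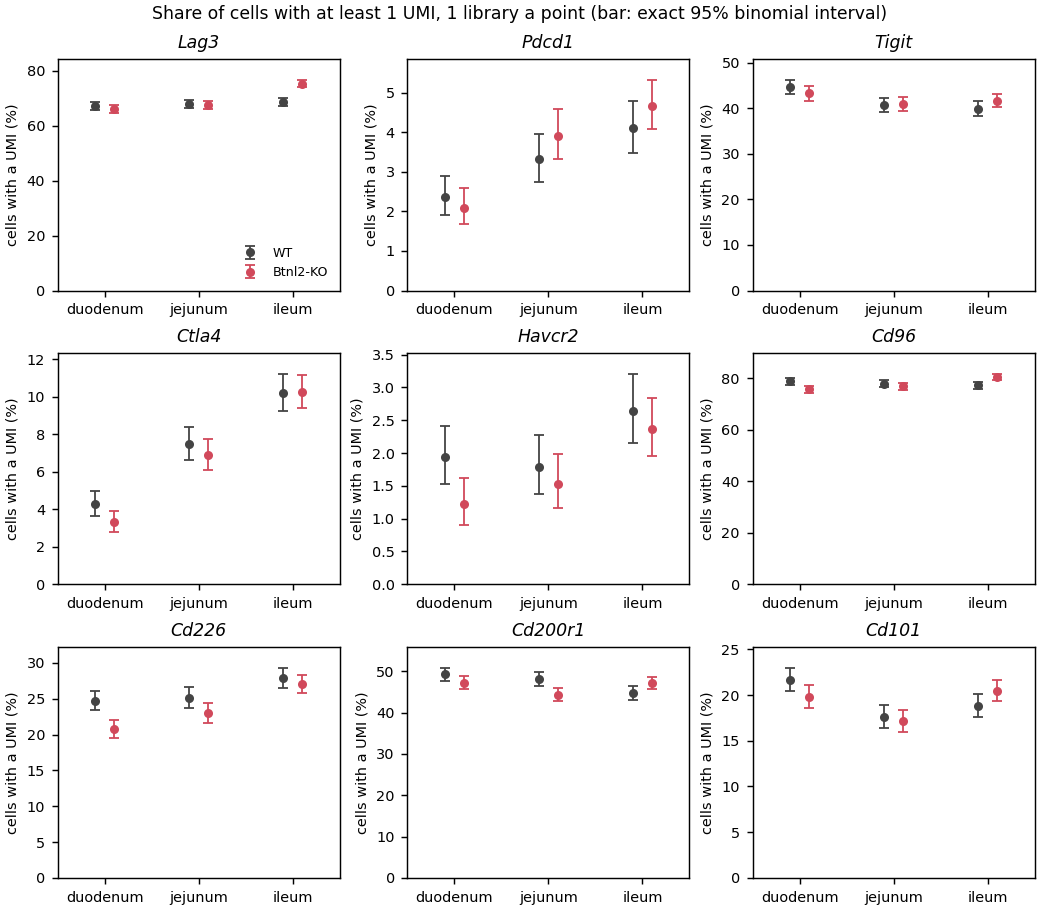
Share of cells with at least 1 UMI of each receptor (vertical axes, percent, linear from 0) by segment, with WT in grey and Btnl2-KO in red. Each point is 1 library and bars are exact 95% binomial intervals for counting error. Ctla4 was at 4.27% and 3.32% in the WT and Btnl2-KO duodenum and at 10.2% in both ileal libraries, and Lag3 was highest in the Btnl2-KO ileum.

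Ctla4 and Pdcd1 were lowest in the duodenum in single cells too. Ctla4 was at 9.25, 17.4, and 22.6 UMI CPM (UMIs of the gene as CPM of all UMIs of the library) in the WT duodenum, jejunum, and ileum and at 7.19, 14.4, and 20.8 in Btnl2-KO. The ileal level was 2.45-fold (95% counting interval 2.07 to 2.90) that of the duodenum in WT and 2.89-fold (2.41 to 3.49) in Btnl2-KO. Pdcd1 was at 6.82, 8.51, and 11.2 UMI CPM in WT and at 5.82, 10.6, and 12.6 in Btnl2-KO, an ileal level of 1.64-fold (1.33 to 2.03) and 2.16-fold (1.75 to 2.68) that of the duodenum. The WT jejunal level of Pdcd1 over the duodenum was 1.25-fold with an interval (0.992 to 1.57) that included 1. By share of cells, 3 receptors had ileal intervals wholly above the duodenal ones in both genotypes, Pdcd1, Ctla4, and Cd226. The same held for 3.09% of 10121 genes with a UMI in at least 1% of all cells. After each cell was thinned to 2750 UMIs, which left out 129 to 332 shallower cells per library, Ctla4 was in 2.295% of WT duodenal and 5.94% of WT ileal cells, and Pdcd1 in 1.41% and 2.27%.

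Cd96, Havcr2, and Cd101 had unlike values in the assays for WT jejunum over duodenum. The scales differ, as single-cell values are folds (no change at 1) and bulk values are log2 fold changes (no change at 0). Cd96 was at 1.02-fold (0.988 to 1.06) in single cells, beside a bulk log2 fold change of 0.78. Its 6 single-cell libraries lay between 316.4 and 324.6 UMI CPM. Havcr2 was at 0.981-fold, with an interval (0.705 to 1.36) that included 1, beside a bulk log2 fold change of 0.75. Cd101 was below 1 in single cells, at 0.839-fold (0.762 to 0.922), beside a bulk log2 fold change of 0.50. Cd226 at 1.08-fold (1.001 to 1.17) and Pdcd1 at 1.25-fold (0.992 to 1.57) stood beside bulk log2 fold changes of 0.58 and 1.07. Lag3 was at 463.1 UMI CPM in the Btnl2-KO ileum and at 407.3 in the WT ileum, a ratio of 1.14 (1.11 to 1.17), and in 75.4% (74.1 to 76.6) and 68.7% (67.2 to 70.2) of cells. Thinned shares were 60.4% and 55.1%, and the Btnl2-KO ileal library had the highest median depth of the 6, at 5468 UMIs. In the duodenum and jejunum the Lag3 ratios of Btnl2-KO to WT were 1.02 (0.985 to 1.05) and 0.986 (0.9545 to 1.02). Other receptors also had genotype ratios with intervals that excluded 1. Cd226 was at 0.8835, 0.866, and 0.915 in the duodenum, jejunum, and ileum. Ctla4 was at 0.777 in the duodenum and 0.825 in the jejunum. Havcr2 was at 0.656 and Tigit at 1.055 in the duodenum, and Cd200r1 at 0.891 and Pdcd1 at 1.248 in the jejunum. The share of all genes with such intervals was not computed. Tigit was lower in the ileum, with a level of 0.863-fold (0.817 to 0.912) that of the duodenum in WT and 0.826-fold (0.785 to 0.868) in Btnl2-KO. So were Cd200r1 (0.859 in WT and 0.869 in Btnl2-KO) and Cd101 (0.850 and 0.905), with intervals below 1. Lag3 (1.207 and 1.348), Cd226 (1.168 and 1.21), and Havcr2 (1.448 and 1.823) were higher in the ileum, with intervals above 1. The share of all genes with such intervals was not computed.

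A cell held UMIs of 2.80 to 3.09 of the 9 receptors on average, depending on the library, and 2.67 to 4.55% of cells held none. Between 9.997 and 14.65% held 5 or more. The mean depended on depth, at 1.62 to 2.27 in the shallowest and 3.64 to 3.92 in the deepest of 10 depth strata of a library. Pairs of receptors were therefore compared with the number of cells expected to hold both, computed from the separate shares within these strata of each library and summed over the 6 libraries.

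Lag3, Tigit, Cd200r1, and Cd101 were found together in more cells than expected, in 6 of 6 libraries for each of their pairs. Cd200r1 and Cd101 shared 2778 cells where 2243 were expected, a ratio of 1.24 (95% counting interval 1.19 to 1.29). Tigit with Cd101 had a ratio of 1.21 (1.16 to 1.26), Tigit with Cd200r1 1.17 (1.14 to 1.20), Lag3 with Cd200r1 1.16 (1.14 to 1.19), Lag3 with Cd101 1.16 (1.12 to 1.19), and Lag3 with Tigit 1.14 (1.11 to 1.16). Cd96, present in most cells, lay between 0.933 and 1.05 with every other receptor.

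**Figure D4:**
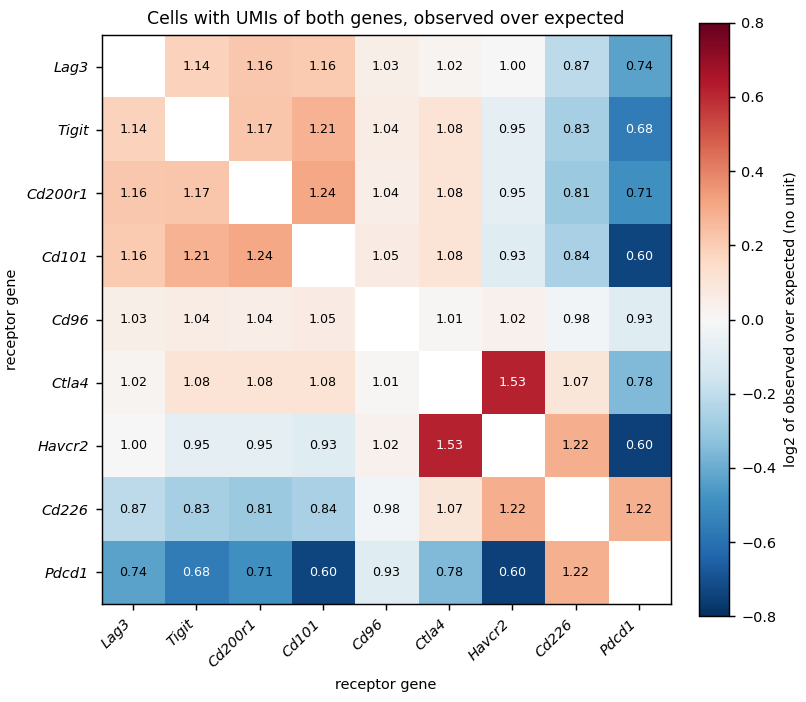
Cells with UMIs of both receptors divided by the number expected within depth strata, over all 23569 cells, for each pair of receptor genes (rows and columns). The colour is the log2 of the ratio, red above and blue below 1. Lag3, Tigit, Cd200r1, and Cd101 form a block above 1, and Pdcd1 and Cd226 lie below 1 with these 4.

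Cd226 and Pdcd1 were apart from that block. Cd226, the activating member, shared fewer cells than expected with Cd200r1 (0.814, interval 0.781 to 0.847), Tigit (0.831, 0.796 to 0.868), Cd101 (0.836, 0.784 to 0.890), and Lag3 (0.866, 0.838 to 0.895), in 6 of 6 libraries each. Pdcd1 shared still fewer, with ratios of 0.601 (0.490 to 0.729) with Cd101, 0.679 (0.596 to 0.770) with Tigit, 0.712 (0.633 to 0.798) with Cd200r1, and 0.742 (0.675 to 0.815) with Lag3, again in 6 of 6 libraries. Pdcd1 and Cd226 were found together in 272 cells where 223.1 were expected (ratio 1.22, 1.08 to 1.37, above 1 in 5 of 6 libraries). Ctla4 and Havcr2 shared 59 cells where 38.6 were expected (1.53, 1.17 to 1.97, above 1 in 5 of 6). Havcr2 and Cd226 had a ratio of 1.22 (1.04 to 1.43), above 1 in 6 of 6 libraries. Pdcd1 and Havcr2 shared 13 cells where 21.8 were expected, with an interval (0.318 to 1.02) that included 1.

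Partner genes from a list of 36, of which 35 were in the tables, differed between these receptors. Cells with Lag3, Tigit, Cd200r1, or Cd101 held Tyrobp, an adaptor of activating receptors, 1.23 to 1.29 times the expected number, and Tnfrsf9 (4-1BB) 1.20 to 1.31 times, in 6 of 6 libraries. They held Cd28, found in 54 cells in all, 0.112 to 0.313 times, Lag3 held Cd5, a T cell receptor inhibitor, 0.314 times, and Cd200r1 held S1pr1, the receptor for exit from tissue, 0.302 times the expected number. The small set of S100a4 cells (38) was also rare among Tigit (0.225) and Cd101 (0.232) cells. Cd96 ratios were nearer to 1, at 1.04 with Tyrobp and 1.03 with Tnfrsf9 and 0.719 with both Cd28 and S100a4.

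Cells with Pdcd1 held other partners. Cd5 was found in 44 of them where 8.47 were expected, a ratio of 5.20 (3.78 to 6.98) and above 1 in 6 of 6 libraries, and S100a4 in 9 where 2.16 were expected (4.16, 1.90 to 7.90, above 1 in 4 of 6). The effector genes Gzmb (0.445, 0.394 to 0.502) and Ccl3 (0.430, 0.363 to 0.506) were found in fewer cells than expected in 6 of 6 libraries. Named after their values were seen, S1pr1 (3.50), Klf2 (2.70), and Tcf7 (2.46) were above 1 in 6 of 6 libraries, while Il7r had a ratio of 0.930 (0.747 to 1.14) and was above 1 in 3 of 6. Other genes of the list were above 1 with Pdcd1 too. Among them were Cd28 (4.03, in 4 of 6), Nr4a1 (2.37, in 5 of 6), and Xcl1 (1.78, in 6 of 6). Cd226 had ratios of 2.04 (1.28 to 3.09) for S100a4 and 1.69 (1.59 to 1.79) for the interleukin-7 receptor gene Il7r, and of 0.620 (0.591 to 0.649) for Tyrobp and 0.692 (0.647 to 0.740) for Tnfrsf9.

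**Figure D5:**
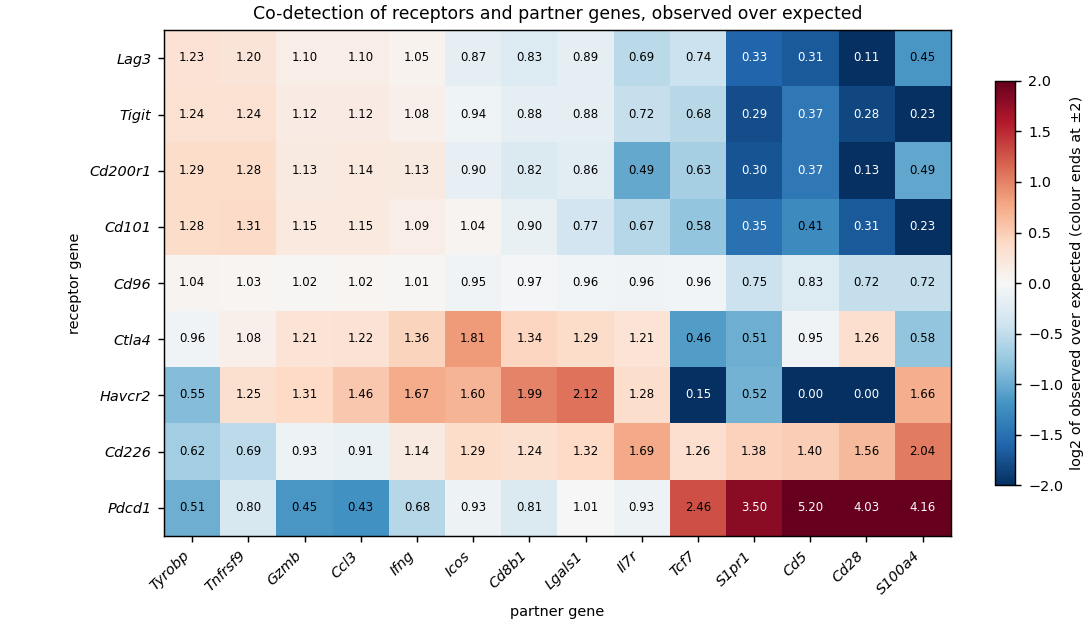
Observed over expected number of cells with UMIs of both genes, for each receptor (rows) and the 14 partner genes with the 2 highest or 2 lowest ratios for any receptor (columns), over all 23569 cells. The colour is the log2 of the ratio, cut at ±2. Pdcd1 was at 5.20 with Cd5 and at 0.445 with Gzmb, and Lag3, Tigit, Cd200r1, and Cd101 were above 1 with Tyrobp and Tnfrsf9.

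Ctla4 and Havcr2 went with other genes. Cells with Ctla4 held the co-stimulator Icos 1.81 times (1.36 to 2.37) and Ifng 1.36 times (1.20 to 1.55) the expected number, and Tcf7 0.461 times (0.393 to 0.537) and S1pr1 0.508 times (0.254 to 0.909). Cells with Havcr2 held the galectin gene Lgals1 2.12 times (1.76 to 2.52) and Cd8b1 1.99 times (1.39 to 2.75), each above 1 in 6 of 6 libraries. They held Cd5 in 0 cells where 4.70 were expected (ratio up to 0.785) and Cd28 in 0 where 1.01 was expected (up to 3.64).

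Cd4, Cd5, and Cd28, which are more typical of αβ T cells, were found in 299 cells (0.690 to 1.75% per library). Pdcd1 was in 16.4% (12.4 to 21.1) of these 299 cells and in 3.28% (3.05 to 3.51) of the others, and Lag3 in 25.1% (20.3 to 30.4) and 69.6% (68.97 to 70.2). This set was chosen after the ratios with Cd5 and Cd28 were seen. Of its 49 cells with Pdcd1, 44 were the cells with Cd5 given above, so that these shares largely repeat those ratios. Without these 299 cells, without the 5% of cells with the most UMIs in each library, or without cells marked by Scrublet, each receptor pair ratio stayed within the counting interval of the ratio given here. The 299 cells and the 51 marked by Scrublet were few of 23569, so that leaving them out was a weak check.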

How the data were processed

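The authors mapped bulk reads to a customized mouse genome with ArrayStudio and counted sense-strand exon reads per gene with RSEM, and the labels name GRCm38. The deposited values were expected counts (5.0012% not whole), which were rounded here. One kit is named in the labels (KAPA stranded) and another in the study's methods. Single-cell UMI counts were made by the authors with Cell Ranger on mm10 and deposited per library, and here cells with under 500 genes or over 10% mitochondrial UMIs were left out. Groups came from the labels. In the bulk IEL file, 1 column could be tied to no sample and was not used. Identifiers with no symbol held 0.253 to 3.474% of counts and were kept in the library totals, the normalization, and the tests. In 30 pairs of replicates the chi-square per degree of freedom was at least 14.319, so that no 2 libraries of a group agreed within sampling noise. T cell receptor constant genes were not analysed here.

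Each comparison was fitted over its own libraries with edgeR 4.0.16 (quasi-likelihood test, TMM, R 4.3.3), and the interactions over all 22, with genes filtered at 10 counts. Calls needed a Benjamini-Hochberg adjusted p below 0.05 and a fold above 1.5 (no fold for interactions). DESeq2 1.42.0 and limma-voom (limma 3.58.1, with sample quality weights), other normalizations and filters, an epithelial covariate, and leaving out each library were alternatives. The bulk scripts were tested on simulated data. Single cells were read with scanpy 1.11.5, with exact intervals from scipy 1.17.1 at 95%. Pair ratios compared observed cells with those expected within 10 depth strata of each library.

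The text names all 9 receptors and Btnl2, up to 4 called genes of each list by size of change, the 3 genes most correlated with each receptor (mean of at least 5 CPM), and the 2 highest and 2 lowest partner genes of each receptor. Further partner genes of Pdcd1 were named after their values were seen. The receptors and lists were chosen with earlier results of these data known.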

Additional observations from a re-analysis of the deposited data

Results flagged for a closer look

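Among 36 groups of 4 libraries, 2 held a library apart from the other 3 by Dixon's test, where chance flags about 1 in 20. Lag3 was at 15.89 CPM in jejunal Btnl2-KO replicate 4, below 21.19 to 22.16 CPM in the others (gap over range 0.8455). Tigit was at 61.51 CPM in jejunal Btnl2-KO replicate 2, above 43.85 to 45.96 CPM in the others (0.8801). Outside the receptors, the single-cell tables held 45 LacZ UMIs in the 3 Btnl2-KO libraries (16 duodenal, 8 jejunal, and 21 ileal) and 0 in the WT libraries, and 0 Btnl2 UMIs in Btnl2-KO.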

How the results depend on the processing

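The number of receptors called between WT jejunum and duodenum was 2 with the epithelial covariate, 3 in the fit of all 22 libraries (Havcr2 lost), 5 by limma-voom, 5 without a count filter, and 6 with no fold minimum. Over all genes these settings called 2050, 2110, 3517, 2936, and 4478, beside 2937 in the main fit. Between WT ileum and jejunum the number of receptors was 1 with the covariate and 3 with no fold minimum, beside 3272 and 4275 of all genes. Between Btnl2-KO ileum and duodenum it was 3 with the covariate, beside 2212 of all genes. Between WT ileum and duodenum it was 2 by DESeq2, 1 by limma-voom, and 1 in the fit of all 22 libraries, between Btnl2-KO jejunum and duodenum 2 by DESeq2 and 3 in the fit of all 22, and between ileal genotypes 2 by limma-voom. Without each library in turn the number ranged from 2 to 6 (WT jejunum over duodenum), 0 to 2 (WT ileum over jejunum), 0 to 1 (WT ileum over duodenum), and 0 to 2 (Btnl2-KO ileum over duodenum), and was 0 in the other comparisons. The number of all genes called ranged in the same way from 1866 to 3375 between WT ileum and jejunum, 2015 to 3895 between WT jejunum and duodenum, 156 to 618 between WT ileum and duodenum, and 15 to 245 between Btnl2-KO ileum and duodenum. The cause was not tested. Of 756 receptor log2 fold changes under the other alternatives 28 changed sign, and of 990 without a library 65 did, and each of these was of a receptor not called in that comparison. Of all genes, 63 were called between Btnl2-KO ileum and duodenum, but 468 by DESeq2, 672 by limma-voom, 125 without a count filter, and 2212 with the covariate. Between ileal genotypes 0 were called, but 221 by DESeq2, 1207 by limma-voom, and 2 in the fit of all 22. Between Btnl2-KO jejunum and duodenum 0 were called, but 93 by DESeq2, 39 in the fit of all 22, and 10 with the covariate. Between WT ileum and duodenum 271 were called, but 502 by DESeq2, 544 by limma-voom, 628 with the covariate, and 118 in the fit of all 22. Between WT jejunum and duodenum 2937 were called, but 4478 with no fold minimum, and between WT ileum and jejunum 2748, but 4275 with no fold minimum, 4215 by limma-voom, and 1426 in the fit of all 22. DESeq2 called 4 and 2 genes between duodenal and jejunal genotypes, where edgeR called 1 each, 3 between Btnl2-KO ileum and jejunum, and 2 for each interaction, and the fit of all 22 called 2 between jejunal genotypes. Leaving out the deepest cells or those with Cd4, Cd5, or Cd28 was chosen after seeing the data. With no depth strata, 7 of 36 pair ratios left their counting interval. No paired analysis was possible because the labels give no replicate numbers. Depth limits the rare receptors most: Havcr2 had 517 UMIs over all cells and Pdcd1 1228.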

Other observations

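Lag3 ranked differently in the assays. By bulk level per kilobase of exon it was the sixth of the 9 receptors (a median of 9.91 CPM per kb), and by single-cell level it was the first (389.2 UMI CPM), a ratio of 39.3 between the measures. The other 8 receptors had ratios between 0.832 (Cd96) and 4.29 (Cd226). Over the 9 receptors Spearman's rho between the assays was 0.717, and over the 8 without Lag3 it was 0.952. These values are descriptions across genes, from mice that the study's methods describe as shared.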
